A study of Caenorhabditis elegans with 2 samples.

Results

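The regions described here are those of the pooled ChIP-seq list whose summit lay inside, or within 200 bp of, a nuclear gene annotated as tRNA, snoRNA or snRNA in Ensembl's WBcel235 annotation of Caenorhabditis elegans. They numbered 507 of 30000 regions (1.69%): 311 at tRNA genes, 150 at snoRNA genes, 33 at snRNA genes and 13 at sls-2 spliced leader genes, which the annotation also counts as snRNA genes and which are given apart. The sls-1 spliced leader genes had 0. The choice used gene positions and summit positions and no signal value.

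The samples were 2 libraries of 1 group, numbered replicates 3 and 4 by the labels: whole hermaphrodite L1 larvae of strain GOU883, a transgenic line in which the transcription factor EGL-13 carries GFP and FLAG at its C-terminus. Chromatin was collected 6 h after synchronization, which was done by starving L1 larvae after bleaching, and was precipitated with an antibody against GFP. The immunoprecipitation thus reports the tagged protein in all cells of the animal together, and there was no second condition to compare. Read depth is unknown, so the precision of a region can be judged from the 2 replicates alone.

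EGL-13 is a Sox-family (HMG box) factor known for its part in the fates of gas-sensing neurons and of uterine cells. The genes around these summits make short noncoding RNAs. A tRNA gene is transcribed by RNA polymerase III from promoter elements inside the gene, the A box near its start and the B box near its end. Small nuclear RNAs form the spliceosome, small nucleolar RNAs guide modification of other RNAs, and spliced leader RNAs donate the short leader that is spliced onto the 5′ end of many nematode mRNAs. Worm snRNA and spliced leader genes are known to carry a proximal sequence element upstream of the gene, of which AACCCG and TGTCGG are part.

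The sequences below show the 90 bases before a gene and its first 30 bases, or the whole gene for tRNA, on the gene's own strand (RefSeq, WBcel235, which is ce11). They are examples, chosen with values in view, of strong sites of each class, of genes of the same kind that had no region, of upstream letters described further on, and of a pair of known loci (F57F5.t1 beside gcy-33, and sup-7). They are not in all cases the strongest sites of their class. For sls-2, capitals mark the first 22 bases of the gene, where the leader lies, the proximal element's letters AACCCG and TGTCGG, and the repeat letters CTCTCT. The gene sls-2.1 (chrII:5844775-5844894, plus strand) had a summit 47 bp before its 5′ end with a pooled signal value of 589. The gene sls-2.2 (chrII:5543508-5543627, plus strand) had one 28 bp before, with 459. The gene sls-2.12 (chrIV:5261823-5261942, plus strand) had none. All 3 lie outside protein-coding genes.
sls-2.1: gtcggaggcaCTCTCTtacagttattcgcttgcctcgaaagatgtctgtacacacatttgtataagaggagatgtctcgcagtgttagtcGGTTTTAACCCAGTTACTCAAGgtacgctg
sls-2.2: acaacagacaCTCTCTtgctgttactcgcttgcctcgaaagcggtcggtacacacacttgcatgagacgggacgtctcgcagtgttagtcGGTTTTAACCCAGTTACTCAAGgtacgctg
sls-2.12: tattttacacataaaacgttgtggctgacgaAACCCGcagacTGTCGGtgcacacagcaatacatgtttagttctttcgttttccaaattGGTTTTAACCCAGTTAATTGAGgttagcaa

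The snRNA gene W05B2.8 (chrIII:10989589-10989708, plus strand) lies in an intron of dhc-4 and had a summit 54 bp upstream, with a signal value of 441. F54C8.8 (chrIII:9445821-9445940, plus strand), in an intron of F54C8.6, is identical to it over all 102 bases and had no region. The gene sup-6 (chrII:12944938-12945057, minus strand) encodes a U1 snRNA, was found through suppressor mutations, and lies in an intron of F58G1.7. Its summit lay 21 bp upstream, with 352. Capitals mark AACCCG and TGTCGG, which were present before sup-6 and absent, as exact letters, from the windows of the other two.
W05B2.8: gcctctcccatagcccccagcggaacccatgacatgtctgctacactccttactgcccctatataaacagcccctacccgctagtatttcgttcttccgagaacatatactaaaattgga
F54C8.8: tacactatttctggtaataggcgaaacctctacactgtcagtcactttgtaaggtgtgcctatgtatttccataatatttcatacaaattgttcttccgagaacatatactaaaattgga
sup-6: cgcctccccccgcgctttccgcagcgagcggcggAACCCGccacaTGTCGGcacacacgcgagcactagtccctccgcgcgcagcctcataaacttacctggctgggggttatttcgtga

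Of the snoRNA genes, Y53F4B.47 (chrII:15025864-15025983, minus strand) lies between protein-coding genes and had a signal value of 383. ZK994.7 (chrV:8500489-8500608, plus strand) lies in an intron of pxn-1 and had 238. Y43F8C.22 (chrV:19643158-19643277, minus strand), in an intron of Y43F8C.7, had 162. Capitals mark AACCCG and TGTCGG, and GTTCGA, the letters of the B box core, which stood upstream of Y43F8C.22. In Y53F4B.47 the second AACCCG runs across the gene's 5′ end. Its first AACCCG, and the letters before ZK994.7, stand farther upstream than the median positions given further on.
Y53F4B.47: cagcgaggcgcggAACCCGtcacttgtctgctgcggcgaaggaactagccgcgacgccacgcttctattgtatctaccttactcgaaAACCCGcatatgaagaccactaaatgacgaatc
ZK994.7: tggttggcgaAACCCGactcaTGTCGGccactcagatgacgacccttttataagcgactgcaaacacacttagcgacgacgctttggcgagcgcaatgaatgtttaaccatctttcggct
Y43F8C.22: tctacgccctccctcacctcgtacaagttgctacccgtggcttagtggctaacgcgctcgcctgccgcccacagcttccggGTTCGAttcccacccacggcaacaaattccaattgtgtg

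For the tRNA genes, capitals mark the B box core (GTTCGANNC or GTTCAANNC) near the gene's 3′ end, where the B box lies, and CTCTCT or GAGAGA before it. The glycine tRNA gene M02F4.t1 (chrX:3036074-3036235, plus strand) had the strongest tRNA region, 29 bp upstream. C28G1.t4 (chrX:8838338-8838499, minus strand) has the same 72 bases and no region. C53C7.t2 (chrX:13046366-13046537, minus strand) is a serine tRNA gene, F57F5.t1 (chrV:12002086-12002260, plus strand) an isoleucine tRNA gene with its summit in the promoter window of gcy-33, and sup-7 (chrX:6371288-6371449, plus strand) a tryptophan tRNA gene known for its amber suppressor alleles. The first 4 lie outside protein-coding genes, and sup-7 lies in an intron of C03B1.2.
M02F4.t1: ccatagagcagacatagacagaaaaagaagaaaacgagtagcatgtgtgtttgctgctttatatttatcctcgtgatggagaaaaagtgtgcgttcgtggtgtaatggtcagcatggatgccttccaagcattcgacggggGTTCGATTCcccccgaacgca
C28G1.t4: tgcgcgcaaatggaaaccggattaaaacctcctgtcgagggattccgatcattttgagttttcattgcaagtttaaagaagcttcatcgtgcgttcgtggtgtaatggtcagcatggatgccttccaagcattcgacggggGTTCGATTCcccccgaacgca
C53C7.t2: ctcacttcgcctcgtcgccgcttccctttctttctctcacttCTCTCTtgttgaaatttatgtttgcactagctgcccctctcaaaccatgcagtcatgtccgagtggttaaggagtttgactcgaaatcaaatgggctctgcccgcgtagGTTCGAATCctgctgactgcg
F57F5.t1: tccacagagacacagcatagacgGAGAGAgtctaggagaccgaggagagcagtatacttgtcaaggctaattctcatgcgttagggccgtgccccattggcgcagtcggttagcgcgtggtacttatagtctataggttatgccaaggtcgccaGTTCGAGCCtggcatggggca
sup-7: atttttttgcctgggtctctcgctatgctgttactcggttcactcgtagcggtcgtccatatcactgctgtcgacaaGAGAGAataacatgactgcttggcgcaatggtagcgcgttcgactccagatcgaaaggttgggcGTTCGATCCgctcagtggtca

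The authors' optimal list held 2294 regions, all of them also in the pooled list, where they were its 2294 strongest by signal value. To be optimal is therefore to exceed a signal value of about 65.3 in the pooled list. Of the 507 regions at small RNA genes, 161 were optimal (31.8%, exact 95% interval 27.7 to 36%), against 7.65% of all pooled regions and 7.23% of the 29493 others. They made up 7.02% of the optimal list and 1.69% of the pooled list. The optimal share was 28.3% at tRNA genes (88 of 311, 23.4 to 33.7%), 38.0% at snoRNA genes (57 of 150, 30.2 to 46.3%), 27.3% at snRNA genes (9 of 33, 13.3 to 45.5%) and 53.8% at sls-2 genes (7 of 13, 25.1 to 80.8%). Each lower bound lay above the share among the other regions, and the intervals of the 4 classes overlapped one another. These intervals cover the counting of regions and not differences between animals. They take regions as independent, though 76 genes had 2 or more regions nearby, each counted apart.

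The same order against the rest of the list was seen in each replicate's own list. Among the 2294 strongest regions of a replicate, which are 7.65% of its list, stood 28.1% of the tRNA regions in replicate 3 and 34.2% in replicate 4. For snoRNA genes the shares were 37.7% and 41.5%, for snRNA genes 30% and 22.2%, and for sls-2 genes 44.4% and 54.5%. In every class both replicates were above 7.65%, and the order of tRNA and snRNA genes differed between them. A stricter count took pooled regions with a summit within 100 bp among the strongest of both replicates. It held 115 of the 507 (22.7%), against 4.98% of all pooled regions, and by class 18.6% at tRNA, 29.3% at snoRNA, 21.2% at snRNA and 46.2% at sls-2 genes.

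The signal value, which comes from the authors' peak caller on an unstated scale, had a median of 38.4 at tRNA genes, 49.0 at snoRNA genes, 35.8 at snRNA genes and 123 at sls-2 genes, against 25.6 in the other pooled regions. As a percentile of the pooled list the medians were 81.3, 88.0, 78.3 and 97.2, in the same order of classes, against 49.6 for the others. The classes also spread widely within themselves. The tRNA regions ran between 19.0 and 281, the snoRNA regions between 19.1 and 383, the snRNA regions between 19.6 and 441 and the sls-2 regions between 21.2 and 752. Of the 100 strongest pooled regions, 3 lay at sls-2, 2 at snRNA, 1 at snoRNA and 0 at tRNA genes. Among the 500 strongest, 10 lay at tRNA genes.

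**Figure D1:**
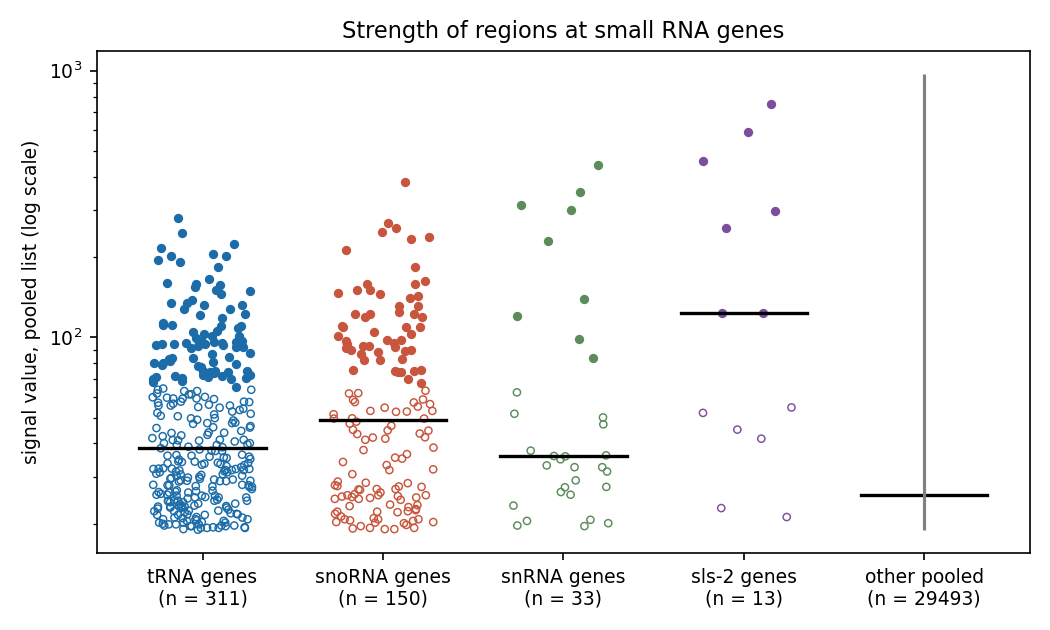
Signal value in the pooled list (vertical axis, log scale, unit not stated by the authors) of each region at tRNA, snoRNA, snRNA and sls-2 genes. Filled points are optimal regions, open points are not, and black bars are class medians; for the 29493 other regions the grey line spans the lowest to the highest value. The class medians (38.4, 49.0, 35.8 and 123) lie above the 25.6 of the other regions, and the sls-2 regions reach 752.

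Protein-coding promoters lie near many of these genes. The summit lay in a promoter window (the stretch running 1000 bp before to 200 bp into a protein-coding transcript) for 31.2% of the regions at small RNA genes, against 32.8% of the others. Outside such windows, 27.3% of tRNA regions (63 of 231), 37.0% of snoRNA regions (34 of 92), 15.8% of snRNA regions (3 of 19) and 28.6% of sls-2 regions (2 of 7) were optimal, against 4.49% of the other regions outside windows. Inside them the shares were 31.2% (25 of 80), 39.7% (23 of 58), 42.9% (6 of 14) and 83.3% (5 of 6), against 12.9%. For tRNA and snoRNA genes the 2 shares lay within each other's intervals, and the shares away from promoter windows stayed above the 4.49%. For snRNA and sls-2 genes most optimal regions were also in a promoter window, and a site of the small RNA gene and one of its neighbour cannot be told apart there.

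Counted by gene, 456 of the 1087 small RNA genes (42.0%) had a pooled summit within 200 bp and 165 (15.2%, 13.1 to 17.5%) had an optimal one. A like count over the first 100 bp of protein-coding genes, with the same 200 bp on each side, gave 3.43% (686 of 19973). Of tRNA genes 95 of 612 had an optimal summit (15.5%, 12.7 to 18.6%), of snoRNA genes 57 of 346 (16.5%, 12.7 to 20.8%), of snRNA genes 8 of 99 (8.08%, 3.55 to 15.3%) and of sls-2 genes 5 of 18 (27.8%, 9.69 to 53.5%). With each replicate's own strongest regions the tRNA share was 14.5% in replicate 3 and 16.0% in replicate 4, and the snoRNA share 16.5% and 17.3%. The remaining 631 genes had no pooled summit within 200 bp. The 22 mitochondrial tRNA genes lie outside the chromosomes of the lists and are not counted.

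Other short genes gave lower counts. Of 209 tRNA pseudogenes, which keep a B box core in 78.9% of cases, 1 had an optimal summit (0.478%, 0.0121 to 2.64%), with 2 of them in replicate 3 and 1 in replicate 4 by the strongest regions. The interval lay below that of the tRNA genes, of which 95.9% held the core. Of 261 miRNA genes 6 had an optimal summit (2.30%, 0.848 to 4.94%). A region at a small RNA gene was in most cases at 1 gene alone (482 of 507), and 25 were near several, 1 of those near genes of different biotypes.

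**Figure D2:**
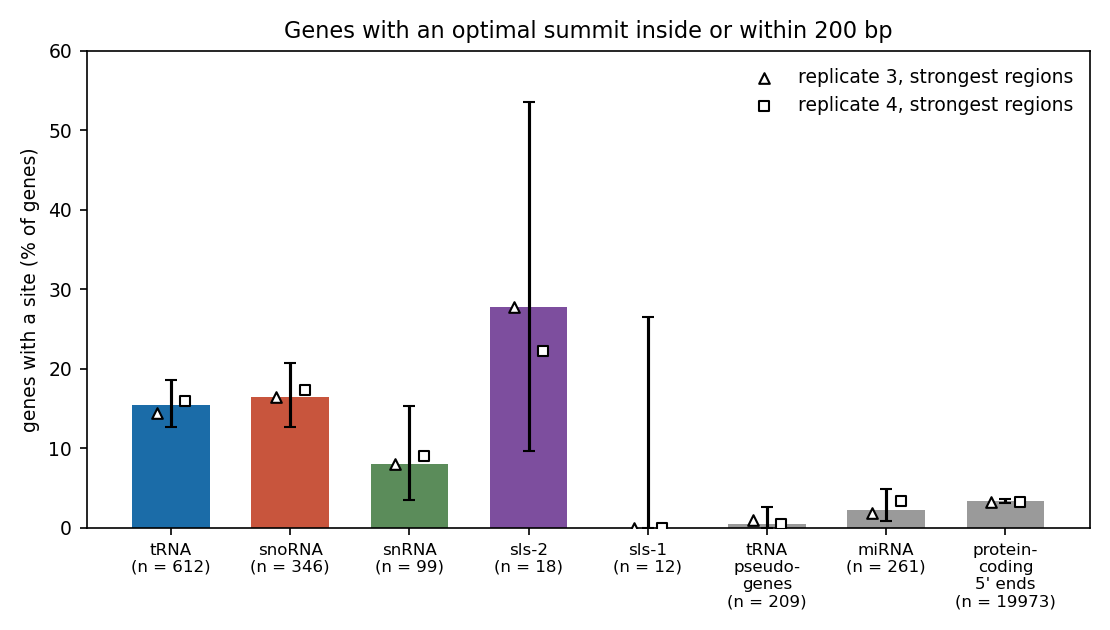
Share of genes (vertical axis, %) with a summit inside or within 200 bp among the optimal regions (bars, exact 95% intervals of counting) and among the strongest regions of replicate 3 (triangles) and replicate 4 (squares). The tRNA and snoRNA bars (15.5% and 16.5%) lie above those of tRNA pseudogenes (0.478%), miRNA genes (2.30%) and protein-coding 5′ ends (3.43%), with both replicates close to each bar.

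The spliced leader genes held the strongest regions, at sls-2, and a stretch with none, at sls-1. SL2, the type of leader made by sls-2 genes, is known for trans-splicing to the downstream genes of operons. The first 22 bases of the 18 sls-2 genes had 11 different sequences, the most common of them in 4 genes. The strongest region, at sls-2.4 on chromosome I, had a pooled signal value of 752 and ranked 5 of 30000, with 471 in replicate 3 and 287 in replicate 4. At sls-2.1 the pooled value was 589, with 377 and 214 in replicates 3 and 4. At sls-2.2 it was 459, with 280 and 182. These 3 ranked 5, 14 and 48 in replicate 3 and 7, 25 and 34 in replicate 4, so they stood near the top of both lists. The next gene, sls-2.8, had 257 (164 and 95.7); here and after, paired values in brackets are those of replicate 3 and then replicate 4.

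Each of sls-2.4, sls-2.1 and sls-2.2 also had a second region on the far side of the gene. At sls-2.2 its signal value was 297, and both replicates had it, with 206 and 107. At sls-2.4 it was 123, with 69.0 and 44.8. At sls-2.1 it was 123, with 103 in replicate 3 and no summit within 100 bp in replicate 4. So 7 optimal regions stood at 4 sls-2 genes. The regions at sls-2.1 overlap, and whether such neighbouring regions mark separate sites was not tested. Another gene, sls-2.9, lay 103 bp from an optimal summit of 71.5 that was nearer to the lysine tRNA gene M01E5.t1, at 29 bp, and was counted there; it had 44.3 in replicate 3 and 21.9 in replicate 4.

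The other sls-2 genes were weaker or without a region. sls-2.7 had 54.6, with 41.0 in replicate 3 and 10.5 in replicate 4. sls-2.14 had 52.1 (37.7 and 12.6), sls-2.16 had 45.1 (37.7 and 11.7) and sls-2.18 had 41.7 (15.1 and 21.2). These 4 lay between percentiles 84.1 and 90.1 of the pooled list and fell short of the optimal list. sls-2.10 had 22.9 and sls-2.6 had 21.2, at percentiles 33.3 and 20.9. The 7 genes sls-2.3, sls-2.5, sls-2.11, sls-2.12, sls-2.13, sls-2.15 and sls-2.17 had none. Of the 9 regions at sls-2 genes outside protein-coding genes 7 were optimal, and of the 4 at sls-2 genes in introns 0 were, which allows a share of up to 60.2%.

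SL1, made by sls-1 genes, is the leader of most trans-spliced worm mRNAs. The 12 annotated sls-1 genes lie together at chrV:17118154-17132107, where 10 are identical over 98 bases. No pooled summit fell within this stretch, and none did in either replicate's list. The nearest pooled summit was 9841 to 18243 bp from each gene, and the nearest optimal one at least 152298 bp. The summits on either side lay 37464 bp apart in the pooled list, where neighbouring summits have a median spacing of 1884 bp and 42 gaps are longer. How the authors treated reads that match several copies is not given in the sources used here, so an absent region cannot be told apart from reads that were not placed.

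Of the snRNA regions, that at W05B2.8 had a pooled signal value of 441, with 252 in replicate 3 and 185 in replicate 4. sup-6 had 352 (228 and 127), C52E4.8 had 314 (200 and 111), F38E11.10 had 300 (200 and 97.4) and F54D8.7 had 229 (145 and 84.0). sup-39, a second U1 snRNA gene found as a suppressor, had 139 (73.9 and 59.5), with mir-1831 within 200 bp of the same summit. By its name a microRNA, mir-1831 is annotated as snRNA and was counted among the snRNA genes with an optimal summit. F32B5.9, on chromosome I, had 120 (54.2 and 56.7). C52E4.8 and F38E11.10 each had a second optimal region past the gene's 3′ end, of 98.5 and 83.9, and these were the weakest optimal snRNA regions. Each overlapped the stronger region of its gene, and whether such pairs mark separate sites was not tested. At C52E4.8 the second region had 73.0 and 23.3 (ranks 967 and 3157 in replicates 3 and 4), and at F38E11.10 it had 34.8 and 23.1, at nearly equal ranks (3104 and 3240). The strongest snRNA region outside the optimal list was a second one at F32B5.9, past its 3′ end, with 62.2 (46.4 and 11.7). It also overlapped the stronger region of its gene.

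The SmY genes, a nematode group of small RNAs with a proposed part in trans-splicing, are annotated partly as snRNA and partly as snoRNA. Of 12 smy genes, 3 had a pooled region and 1 an optimal one: smy-2 with 145, smy-3 with 52.7 and smy-12 with 20.5. The other smy genes had no pooled summit within 200 bp.

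The strongest snoRNA region was at Y53F4B.47, with a pooled signal value of 383, 199 in replicate 3 and 189 in replicate 4. It was followed by F59C6.15 with 269 (186 and 87.8), M7.15 with 258 (150 and 115), M163.14 with 249 (130 and 119), ZK994.7 with 238 (145 and 96.6) and F39B2.14 with 234 (134 and 93.1). All 6 were among the strongest of both replicates. Their summits lay 46 to 101 bp before the gene's 5′ end, at M7.15 farthest and at ZK994.7 nearest. In 5 of the 6, ZK994.7 being the exception, the summit was also in the promoter window of a protein-coding gene, at M7.15 of klc-1 and let-70. 

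At the lower end of the optimal list were T03F7.8 with 69.8 (41.0 and 27.7) and T19B4.8 with 67.4 (39.0 and 33.1). Just outside it were C04G6.12 with 63.1 (21.7 and 47.7) and D1046.6 with 61.8 (49.4 and 11.8). The replicates differed more at the last 2 than at the first 2. The optimal snoRNA region with the widest difference in replicate ranks was at F38E11.14, with 66.1 in replicate 3 (rank 1121) and 19.2 in replicate 4 (rank 4969).

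Among tRNA genes the strongest region was at M02F4.t1, with 281 pooled, 172 in replicate 3 and 109 in replicate 4. It also lay within 200 bp of M02F4.t2, a glutamate tRNA gene. C28G1.t1 (glutamate), in an exon of C28G1.2, had 246 (148 and 98.8). F57F5.t1 (isoleucine) had 223 (139 and 87.0), with its summit also in the promoter windows of gcy-33, a guanylate cyclase gene, and of cpr-9. C53C7.t2 (serine) had 217 (121 and 93.4), and C04A11.t1 (leucine) had 205 (137 and 67.4). All 5 ranked between 193 and 413 in replicate 3 and between 154 and 439 in replicate 4.

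The next 5 tRNA regions had pooled signal values of 183 to 202: F47G6.t1 (arginine) and F41D9.t3 (asparagine), W03G11.t1 (lysine), R04A9.t1 (glutamine) and C33G3.t2 (lysine). Of these 10, 8 were on chromosome X, with F57F5.t1 on V and F47G6.t1 on I as the exceptions; X holds 276 of the 612 tRNA genes and 149 of the 311 tRNA regions. sup-7 had 138. The weakest optimal tRNA regions were at F55G7.t2 with 68.0 (32.2 and 32.3) and T25E4.t1 with 65.3 (46.6 in replicate 3 and no summit within 100 bp in replicate 4). The strongest outside the list were F19H6.t1 with 64.3 (30.6 and 32.2) and C24H11.t1 with 63.6 (39.3 and 25.6). K02A4.t2 (alanine) had the most uneven optimal region, with 13.4 in replicate 3 (rank 24964) and 42.4 in replicate 4 (rank 1041).

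By amino acid, optimal summits were spread over nearly all tRNA families. Proline tRNA genes had them at 11 of 42 (26.2%, 13.9 to 42.0%), aspartate at 7 of 27 (25.9%, 11.1 to 46.3%) and serine at 9 of 39 (23.1%, 11.1 to 39.3%). At the other end were methionine with 1 of 20 (5.00%, 0.127 to 24.9%) and glutamine with 1 of 27 (3.70%, 0.0937 to 19.0%). These intervals overlap, so no order among the amino acids is given by the counts. The single selenocysteine tRNA gene had a region of 68.6, among the strongest of replicate 4 but not of replicate 3.

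Many tRNA genes are exact copies of one another. The 612 genes have 200 different sequences, and 57 sequences occur more than once and account for 469 genes. In 36 of these 57 families some copies but not all had an optimal summit, in 2 all had one and in 19 none had. The glycine family of M02F4.t1 has 29 copies, of which 7 had a pooled region and 3 an optimal one. Its best values were 281 and 84.2. In the lysine family of W03G11.t1, 17 of 25 copies had a pooled region and 5 an optimal one, the best 195 and 149. In the phenylalanine family of K08B5.t1, 7 of 10 had a pooled region and 0 an optimal one, the best at 54.5. Among snRNA genes the 14 copies identical to W05B2.8 included 4 with a pooled region, and the second best value was 51.7 against 441 at W05B2.8. Copies with the same gene sequence thus had very different values. How reads that match several copies were placed is not known here, and neither its part in these differences nor that of the flanks was tested.

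Tied to copy number, 11.9% of tRNA genes of unique sequence had an optimal summit (17 of 143, 7.08 to 18.4%), 18.4% of those with 2 to 9 copies (28 of 152, 12.6 to 25.5%) and 15.8% of those with 10 or more (50 of 317, 11.9 to 20.3%). The intervals overlap. 

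Isolated genes, which lie outside every protein-coding gene, were compared with genes in introns. For tRNA regions the optimal share was 29.5% at isolated genes (52 of 176, 22.9 to 36.9%) and 26.9% at intronic genes (35 of 130, 19.5 to 35.4%). For snoRNA regions it was 42.6% (29 of 68, 30.7 to 55.2%) and 34.4% (22 of 64, 22.9 to 47.3%), and for snRNA regions 38.5% (5 of 13, 13.9 to 68.4%) and 21.1% (4 of 19, 6.05 to 45.6%). The isolated share was higher in each of the 3 classes, by less than the width of the intervals. The median signal value went the other way for tRNA regions, 35.7 at isolated (percentile 78.1) and 43.0 at intronic genes (percentile 85.0), and the same way for snoRNA regions, 54.8 and 41.8. With the stronger 50% of the optimal list the tRNA order turned round, to 10.8% at isolated and 13.1% at intronic genes.

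Counted by gene the gap was wider. An optimal summit stood at 18.2% of isolated tRNA genes (58 of 319, 14.1 to 22.9%), against 12.7% of intronic ones (36 of 283, 9.07 to 17.2%). In replicate 3 the shares were 17.6% and 11.3%, and in replicate 4 they were 17.9% and 14.1%. Isolated tRNA genes were more often on X (180 of 319) than intronic ones (95 of 283). On X the optimal shares were 20.6% of isolated and 14.7% of intronic tRNA genes, and on the autosomes 15.1% and 11.7%. For snoRNA genes the shares were 22.6% (28 of 124, 15.6 to 31.0%) and 13.6% (23 of 169, 8.83 to 19.7%), with 24.2% and 13.0% in replicate 3 and 23.4% and 14.8% in replicate 4. snRNA genes went the other way, with 3 of 39 isolated (7.69%) and 5 of 48 intronic (10.4%). These 5 include mir-1831, which shares the optimal summit of sup-39, so the order of the snRNA shares rests on very few genes. All these intervals overlap. For a tRNA gene in an intron, the share was 13.7% with the host gene on the same strand (22 of 161) and 11.5% with it on the opposite strand (14 of 122). By region the shares were 31.4% (22 of 70, 20.9 to 43.6%) and 21.7% (13 of 60, 12.1 to 34.2%), and these intervals overlap.

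By chromosome, 18.8% of tRNA genes on X had an optimal summit (52 of 276, 14.4 to 24.0%), against 12.8% on the autosomes (43 of 336, 9.42 to 16.8%), with 18.1% and 11.6% in replicate 3 and 20.3% and 12.5% in replicate 4. For snoRNA genes the order was the reverse, 6.06% on X (2 of 33, 0.743 to 20.2%) against 17.6% (55 of 313, 13.5 to 22.2%). In both classes the intervals overlap. Shares by chromosome over all regions or protein-coding genes were not computed, so whether these orders are particular to small RNA genes was not tested.

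Most optimal summits lay upstream of the gene. Position is counted along the gene's own strand from its 5′ end, with negative values upstream. Optimal summits at tRNA genes had a median position of -21 bp (quartiles -34 and 6.5), and those at snoRNA genes -54 bp (-80 and -22). At snRNA genes the median was -33 bp and at sls-2 genes -28 bp. Of the optimal summits, 69.3% at tRNA genes and 84.2% at snoRNA genes lay upstream of the gene, and 74.5% in all (120 of 161). Among regions outside the optimal list 44.2% did so (153 of 346), with medians of 21 bp at tRNA and 14 bp at snoRNA genes. Some of these weaker downstream summits belonged to a second region at a gene that also had one nearer its 5′ end. At F41D9.t1 the summits lay at -35 and 201 bp, in regions that overlap. In all, 76 genes had 2 or more regions nearby, and the part of such pairs in these positions was not tested. The order of tRNA and snoRNA positions was the same in the strongest regions of each replicate, with medians of -16.5 and -47 bp in replicate 3 and -26 and -67 bp in replicate 4.

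**Figure D3:**
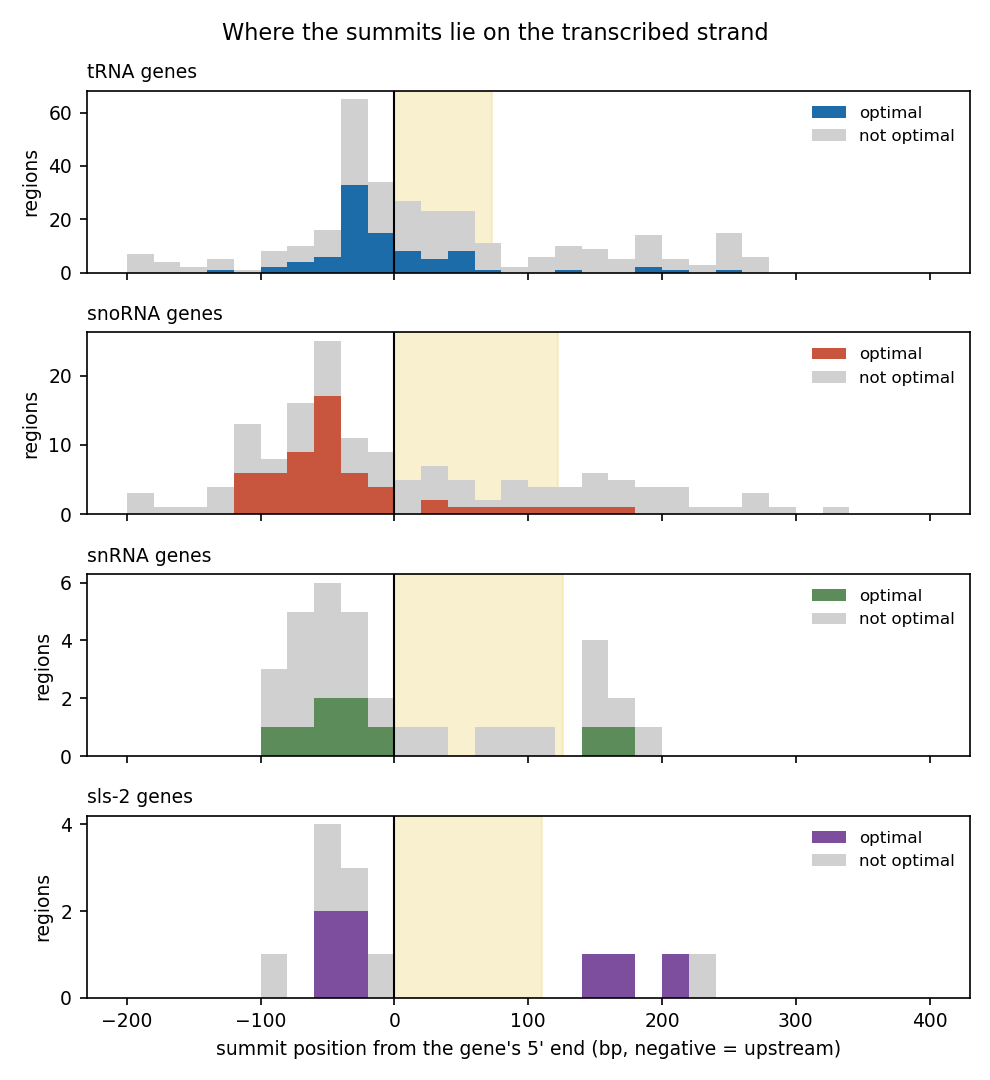
Number of regions (vertical axis) by the position of the summit from the 5′ end of the gene (horizontal axis, bp, negative upstream), for 4 gene classes, with optimal regions in colour and the others in grey, stacked. The yellow band runs from the 5′ end over the median gene length of the class. Optimal summits gather upstream, at a median of -21 bp for tRNA and -54 bp for snoRNA genes. The others extend into and past the gene, some of them as a second region of the same gene.

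No summit of an optimal snRNA or sls-2 region lay inside its gene: 7 of 9 and 4 of 7 were upstream. The rest lay past the 3′ end, each as a second region of its gene. At tRNA genes 25% of the optimal summits (22 of 88) were inside the gene. The distance limit of 200 bp made a difference in 1 prominent case. The snoRNA gene W06H8.17 lay 205 bp from an optimal summit with a signal value of 436, which would have been the strongest snoRNA region. Other summits just outside the limit lay 203 bp from F12D9.t5 (26.1) and 201 bp from rte-3 (33.3), which has another region inside the gene. Just inside were summits 200 bp from rte-4 (25.5) and 198 bp from T16D1.t1 (19.7).

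The 2 replicates were compared over the regions with a summit within 100 bp in both. At small RNA genes there were 269 of 507 (53.1%), against 26.4% of all pooled regions (7932). Across these 269 regions the rank correlation of the signal values was 0.73 and Pearson's r of their log2 was 0.775, against 0.658 and 0.807 over all. Regions of the same libraries are not independent, so these are descriptions. Of the 161 optimal regions, 153 (95.0%) were matched in both replicates, against 93.5% of the whole optimal list. Across these matched optimal regions the rank correlation was 0.6 and Pearson's r 0.686, against 0.625 and 0.71 over the whole optimal list. Values at small RNA genes were higher in replicate 3 by a median ratio of 1.44, close to the 1.40 of all pooled regions. For the optimal regions the ratio was 1.48 at small RNA genes, against 1.7 over the whole optimal list.

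**Figure D4:**
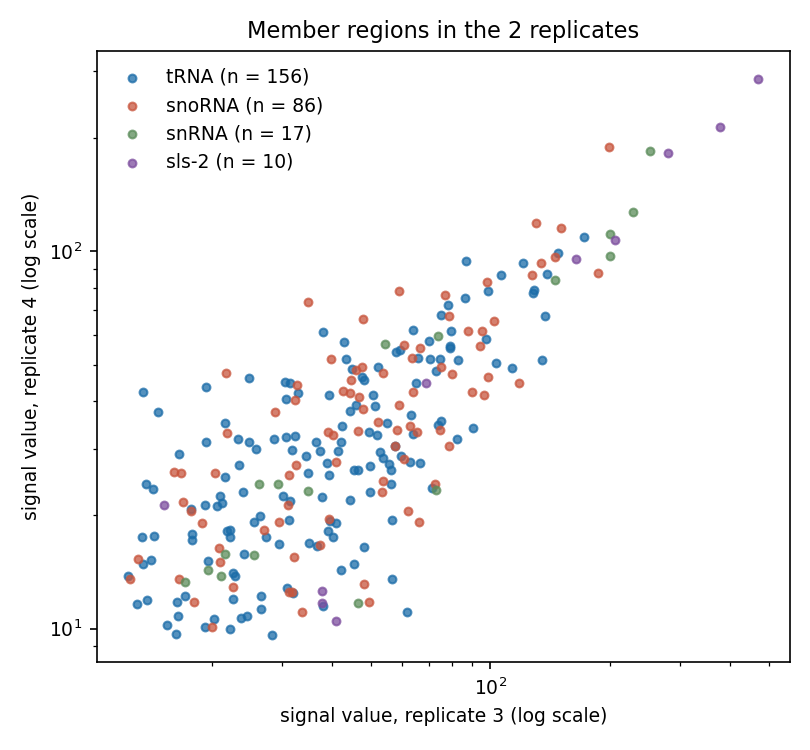
Signal value in replicate 3 (horizontal axis) and replicate 4 (vertical axis), both on log scales, of the 269 regions with a summit within 100 bp in both replicates, coloured by gene class. The upper right holds sls-2, snRNA and snoRNA regions, with 471 and 287 at sls-2.4 as the highest values in replicates 3 and 4, and agreement loosens below about 100.

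The sequence at the summits was read within 50 bp on either side, on both strands. The A box of tRNA genes was found at 54.5% of optimal tRNA summits (48 of 88), at 30% of the tRNA summits outside the optimal list, and at 2.91% of the optimal regions elsewhere. The B box core, GTTCGANNC or GTTCAANNC, was found at 17% of optimal and 23.3% of other tRNA summits, against 0.844% of optimal regions elsewhere. Both boxes belong to the tRNA genes that chose these tRNA regions, so their presence there follows from that choice and from where the summit lies. Inside the tRNA genes the core was as frequent with an optimal summit (96.8% of 95) as without one (95.7% of 517). At optimal snoRNA summits the A box was found at 22.8% (13 of 57) and the B box core at 12.3%. At the other snoRNA summits it was 6.45% and 7.53%. The snoRNA genes themselves held the boxes in 3.18% and 2.89%, and the source of those at snoRNA summits was not tested.

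Other letters were compared with the optimal regions elsewhere. GAGAGA (or its reverse complement) was at 34.1% of optimal tRNA summits (30 of 88, 24.3 to 45.0%), 15.8% of optimal snoRNA summits (9 of 57, 7.48 to 27.9%) and 0 of 9 snRNA and 0 of 7 sls-2 summits, against 25.5% elsewhere (23.6 to 27.4%). It was at 10.3% of the tRNA summits outside the optimal list. GACGCA was at 7.45% of the 161 optimal summits at small RNA genes (3.91 to 12.7%), against 15.9% elsewhere (14.4 to 17.5%). AACAAT, the letters known for Sox factors, was at 1.86% (3 of 161, 0.386 to 5.35%), against 6.47% (5.46 to 7.60%). AACAAT was more frequent outside the optimal list, at 12.1% of the weaker regions elsewhere and 10.8% of the other tRNA summits. GACGCA was at 2.89% of the weaker regions elsewhere. For GACGCA and AACAAT the interval at optimal small RNA summits lay below that of optimal regions elsewhere, and for GAGAGA at tRNA genes it overlapped. The median GC content of the windows was 50.5% at optimal tRNA and 55.4% at optimal snoRNA summits, against 45.5% at optimal regions elsewhere and 33.7% at the weaker ones. Its part in these shares was not tested.

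The 120 bp before each gene were read on the gene's own strand for 6 hexamers, most of which were picked after values were seen, so their shares are descriptions. AACCCG stood before 33.3% of snRNA genes and 55.6% of sls-2 genes, at median positions of -58 and -59 bp, and TGTCGG before 30.3% and 66.7%, at -47 and -48 bp. They stood before 1.10% and 0.971% of protein-coding 5′ ends. Before snoRNA genes AACCCG occurred in 8.09% and TGTCGG in 10.1%, at -59.5 and -49 bp, so at nearly the same spacing. The optimal snoRNA genes had AACCCG in 22.8% and TGTCGG in 21.1%, those without an optimal summit in 5.19% and 7.96%. GTTCGA stood before 19.3% of optimal snoRNA genes, at a median of -15 bp, against 5.19% of the others and 1.75% of protein-coding 5′ ends. CTCTCT stood before 24.2% of optimal tRNA genes, 8.70% of the other tRNA genes and 6.36% of protein-coding 5′ ends. GACGCA stood before 2.78% of tRNA and 4.05% of snoRNA genes, against 1.35% of protein-coding 5′ ends.

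Turned round, 34.1% of snoRNA genes with AACCCG or TGTCGG upstream had an optimal summit (15 of 44, 20.5 to 49.9%), against 13.9% of those without (42 of 302, 10.2 to 18.3%). In replicate 3 the shares were 34.1% and 13.9%, and in replicate 4 they were 36.4% and 14.6%. In introns the shares were 36.4% (8 of 22, 17.2 to 59.3%) with the letters and 10.2% (15 of 147, 5.82 to 16.3%) without. At isolated genes they were 31.8% (7 of 22, 13.9 to 54.9%) and 20.6% (21 of 102, 13.2 to 29.7%), with intervals that overlap. With GTTCGA upstream it was 42.3% (11 of 26, 23.4 to 63.1%), against 14.4% without (46 of 320, 10.7 to 18.7%). In 1 of the 26, C51F7.3, the letters lie inside a neighbouring snoRNA gene, C51F7.4, which also holds the optimal summit. For tRNA genes with CTCTCT or GAGAGA upstream the share was 35.2% (38 of 108, 26.2 to 45.0%), against 11.3% without (57 of 504, 8.68 to 14.4%), with 33.3% and 10.5% in replicate 3 and 34.3% and 12.1% in replicate 4. For snoRNA genes with these repeat letters it was 33.3% (11 of 33, 18 to 51.8%), against 14.7% without (46 of 313, 11.0 to 19.1%), and for snRNA genes 13.3% (2 of 15) against 7.14% (6 of 84). Since the letters were picked with values in view, the distance between these intervals supports nothing further.

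For AACCCG and TGTCGG, the counts in the classes whose genes most often hold them were too small to tell a difference. Of snRNA genes with AACCCG or TGTCGG 10.7% had an optimal summit (6 of 56, 4.03 to 21.9%), against 4.65% without (2 of 43, 0.568 to 15.8%). Of sls-2 genes it was 4 of 16 with them and 1 of 2 without. AACCCG stood before 62.5% of optimal snRNA genes (5 of 8) and 30.8% of the others (28 of 91). For TGTCGG the shares were 25% (2 of 8) and 30.8% (28 of 91). Before the 5 sls-2 genes with an optimal summit, AACCCG was present in 1 (20%) and TGTCGG in 3 (60%). CTCTCT stood before 2 of the 18 sls-2 genes, both at -80 bp, and both of these, sls-2.1 and sls-2.2, had optimal summits, as their sequences above show. A match of letters is not evidence of binding of any factor.

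**Figure D5:**
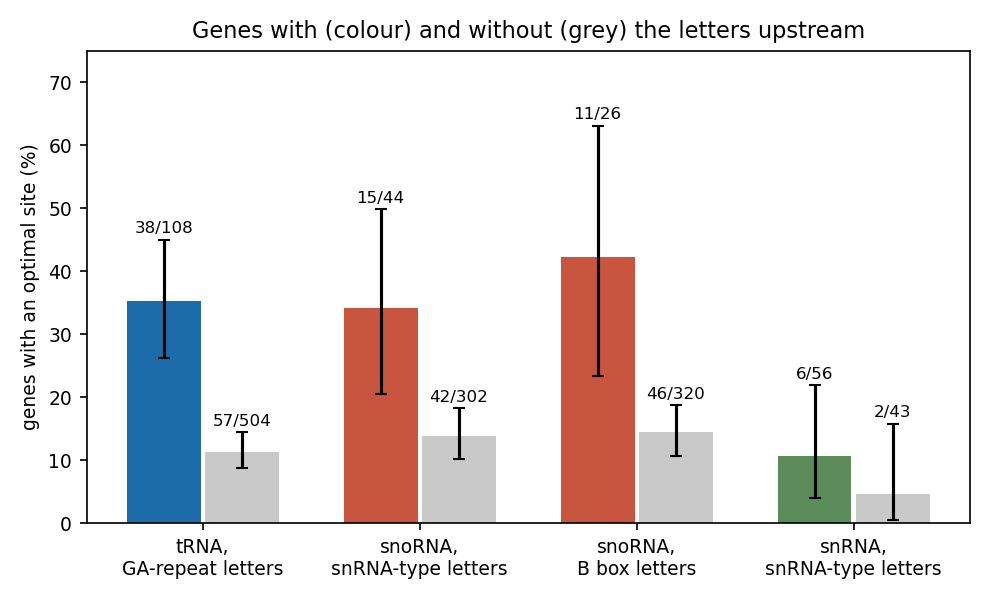
Share of genes with an optimal summit within 200 bp (vertical axis, %), for genes with the letters in the 120 bp upstream (colour) and without them (grey), with exact 95% intervals and counts. GA-repeat letters are CTCTCT or GAGAGA, snRNA-type letters are AACCCG or TGTCGG, and B box letters are GTTCGA; the tRNA shares are 35.2% and 11.3%, and the snRNA pair overlaps.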

How the data were processed

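Region lists in narrowPeak format were used as the authors deposited them on ce11: 1 per replicate, 1 of both replicates pooled, each of 30000 regions with background, and 1 optimal list. The signal value deposited with each region comes from the authors' peak caller. Not given in the sources used here are its scale, the caller, the aligner and the cutoff of the IDR step. A control alignment was used, per the deposited file descriptions, so the signal may depend on it.

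Summits were set against 1087 nuclear genes of Ensembl release 115 (WBcel235, the build of the lists; all regions lay within its chromosomes). Each region was counted for its nearest gene. Symbols and tRNA amino acids came from RefSeq through WormBase IDs, which matched all genes; 607 of 612 tRNA genes had an amino acid. Intervals are exact (Clopper-Pearson, 95%) and cover counting of regions or genes. With 1 group and no read counts, no test was made between conditions and depth is unknown. The nearest-gene assignment was tested on simulated data. The work was done in Python 3.11.15 with pandas 2.3.3 and NumPy 2.4.6, SciPy 1.17.1 for intervals and matplotlib 3.10.9 for plots.

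Named genes are those of the strongest regions of each class, all spliced leader genes, the regions next to the optimal threshold, those with the widest replicate difference and those next to the 200 bp limit; sequences, smy genes, sup-7 and repeated families were chosen after their values were seen. The members and lists were chosen with earlier results of these data known.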

Additional observations from a re-analysis of the deposited data

How the results depend on the processing

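No paired analysis was possible because the 2 replicates form 1 group. Of 141 alternatives for 21 results, 109 stayed within the 95% interval of the reported share or median, or within 1.5 times a reported count; for the 32 that moved the cause was not tested, apart from what each alternative itself leaves out. With the summit inside the gene (0 bp) the regions numbered 83 at tRNA, 32 at snoRNA, 6 at snRNA and 0 at sls-2 genes. The optimal shares were then 21.9% of snoRNA and 0% of snRNA regions, 28.6% at isolated and 8.33% at intronic snoRNA genes, and 3.59% of tRNA, 2.02% of snoRNA, 0% of snRNA and 0% of sls-2 genes, with median percentiles of 68.7 (snoRNA) and 61.2 (snRNA). The share of protein-coding 5′ ends was not computed at 0 bp, so the 3.43% found with 200 bp on each side is no counterpart to these gene shares. At 500 bp there were 236 snoRNA regions (28.8% optimal, median percentile 77.5) and 52 snRNA regions. At 100 bp the tRNA median percentile was 86.3 and the isolated tRNA share 37.6%. The stronger 50% of the optimal list held 11.9% of tRNA and 20.7% of snoRNA regions (isolated tRNA 10.8%, intronic tRNA 13.1%, isolated snoRNA 22.1%, intronic snoRNA 17.2%), and summits at 7.03% of tRNA and 9.25% of snoRNA genes. This setting calls fewer regions, so the share over all pooled regions also falls below the 7.65% of the full list. The strongest regions of both replicates held 18.6% of tRNA and 29.3% of snoRNA regions. Each replicate alone gave 28.1% to 34.2% for tRNA regions. With identical tRNA genes counted once, 55 of 200 sequences (27.5%) had an optimal summit at 1 copy or more. Unknown depth, repeated genes and 2 replicates limit what a missing region can show.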
